A study of Homo sapiens with 12 samples.

Results

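The cluster of miR-183, miR-96 and miR-182 was examined in small RNA libraries of pancreatic ductal adenocarcinoma (PDAC) cells. Its members were chosen by name, as the mature miRNAs of 3 hairpins that are transcribed together, namely hsa-mir-183-5p, hsa-mir-183-3p, hsa-mir-96-5p, hsa-mir-182-5p and hsa-mir-182-3p. They are 5 of the 1733 mature miRNAs listed in at least 1 of the 12 libraries, and all 5 were tested in every comparison. The study asked which miRNAs depend on MYEOV, a gene named for its overexpression in myeloma, by depleting it with siRNAs in AsPC-1 and PANC-1 cells. AsPC-1 is a PDAC line from ascites and was grown in RPMI 1640, and PANC-1 is a line from a primary pancreatic tumor and was grown in DMEM, both with 10% fetal bovine serum. Each line gave 3 control libraries and 3 libraries labelled si-MYEOV, called siMYEOV here.

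The labels describe the controls as without treatment, whereas the protocol names a negative control siRNA, and they place RNA preparation 48 h after transfection, a later time than the methods of the study. Stealth siRNAs siMYEOV-1 and siMYEOV-2 are listed, and whether the numbers of the siMYEOV libraries name the siRNA or a culture is not given in the sources used here. The methods of the study state in general that experiments were repeated independently, but the labels do not say whether the 3 libraries of a group came from separate cultures, and p-values measure the spread between these libraries. MYEOV itself is not a small RNA, and its level was not analysed here.

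MiRNAs are cut from hairpin precursors, and the arm that is loaded into an Argonaute protein pairs with mRNAs through its seed, bases 2 to 8 from the 5′ end. The opposite arm is mostly degraded. In this cluster the 5p arms are the loaded arms. The cluster is known from sensory organs, where mutations in the miR-96 seed cause hearing loss, and as a group of miRNAs with high levels in many epithelial cancers. FOXO1 and FOXO3, transcription factors that restrain growth, are among the published targets of its members.

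The mature sequences of the 5 members, from RefSeq (GRCh38.p14), are shown because the 3 loaded arms have nearly the same seed, which is in capitals.
hsa-mir-183-5p: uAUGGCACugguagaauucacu
hsa-mir-96-5p: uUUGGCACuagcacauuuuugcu
hsa-mir-182-5p: uUUGGCAAugguagaacucacacu
hsa-mir-183-3p: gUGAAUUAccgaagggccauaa
hsa-mir-182-3p: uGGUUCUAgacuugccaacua
MiR-1271-5p is added below because it is encoded elsewhere and has the seed of miR-96-5p, and miR-96-3p because it is the opposite arm of the miR-96 hairpin.
hsa-mir-1271-5p: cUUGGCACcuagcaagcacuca
hsa-mir-96-3p: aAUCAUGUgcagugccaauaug

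Positions are counted from 1 at the 5′ end. MiR-96-5p and miR-183-5p shared 6 of 7 seed bases and differed there by A2U, with the base of miR-183-5p first. MiR-182-5p and miR-96-5p also shared 6 of 7, with C8A between miR-96-5p and miR-182-5p. MiR-183-5p and miR-182-5p shared 5 of 7 seed bases (A2U and C8A) but were alike at 18 of the first 22 positions of the whole miRNA, whereas miR-96-5p matched miR-183-5p at 13 of 22 positions and miR-182-5p at 12 of 23. Of 2370 mature human miRNAs in the RefSeq table, 2 carried the seed of miR-96-5p, itself and miR-1271-5p, and each of the other 4 members carried a seed held by no other entry.

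The hairpins of miR-96 and miR-182 are given with both mature arms in capitals, to show where the loaded and the opposite arm lie in a precursor.
MIR96: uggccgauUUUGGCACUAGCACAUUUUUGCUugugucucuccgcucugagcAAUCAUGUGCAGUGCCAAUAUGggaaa
MIR182: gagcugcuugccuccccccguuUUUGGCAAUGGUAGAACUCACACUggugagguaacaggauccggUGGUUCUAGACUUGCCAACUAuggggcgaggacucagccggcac
In GRCh37, the build the authors mapped to, the 3 hairpin genes lie on the minus strand of chromosome 7, in the order MIR183 (129414745 to 129414854), MIR96 (129414532 to 129414609) and MIR182 (129410223 to 129410332) along the direction of transcription. MIR183 and MIR96 are 135 bp apart, and MIR182 follows 4199 bp further on, so that the cluster spans 4632 bp. All 3 lie in an intron of a transcript of the long noncoding RNA gene ENSG00000286380 (129402900 to 129420060, same strand) in the GENCODE annotation. MIR1271 lies on chromosome 5 (175794949 to 175795034, plus strand), within the gene ARL10.

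The libraries held 3805084 to 7311783 counted reads, and a count of 3 in a library corresponded to 0.410 to 0.788 CPM (counts per 1000000 counted reads). In AsPC-1, control 1 stood apart from the other controls, with a chi-square per degree of freedom of 224 against control 2, where controls 2 and 3 differed from each other by 22.1. Both lines were checked against epithelial miRNAs (miR-200a-3p, miR-200b-3p, miR-200c-3p, miR-141-3p, miR-429 and miR-375), which summed to 48700 to 52700 CPM per AsPC-1 library and 220 to 287 CPM per PANC-1 library. The sum was carried by the miR-200 family, and miR-375 went the other way, with 1.54 CPM in AsPC-1 and 9.90 CPM in PANC-1 controls (LFC -2.64, adjusted p = 1.56e-06, edgeR). The 3 acinar markers (miR-216a-5p, miR-216b-5p, miR-217) summed to at most 0.509 CPM in either line. Of the other marker lists, leukocyte miRNAs summed to at most 11.6 CPM and miR-122-5p (hepatocyte) to at most 10.8 CPM, while erythroid miRNAs, almost wholly miR-486-5p, summed to 398 to 564 CPM and the endothelial arms of miR-126 to 1240 to 1970 CPM. Muscle miRNAs, mostly miR-1-3p, reached 127 to 177 CPM in PANC-1 and at most 1.54 CPM in AsPC-1. The part of these differences in the results below was not tested.

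All 5 members were higher in AsPC-1 than in PANC-1 control cells, by 1.71-fold to 3.55-fold. MiR-182-5p was the most abundant member in each of the 12 libraries, followed by miR-183-5p and miR-96-5p, and the 3p arms were present at a small fraction of their level. Levels in this comparison are CPM scaled with TMM factors (trimmed mean of M-values), and LFC is the log2 fold change of AsPC-1 over PANC-1. Because these are bulk libraries of cultured cells, fewer cells with a miRNA and less of it per cell cannot be told apart.

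MiR-182-5p was measured at 11700, 12840 and 13110 CPM in AsPC-1 controls 1 to 3 and at 5486, 6132 and 6445 CPM in PANC-1 controls 1 to 3. MiR-183-5p was measured at 4348, 5395 and 5268 CPM in AsPC-1 and at 2025, 2267 and 2416 CPM in PANC-1. MiR-96-5p was measured at 2766, 2651 and 2886 CPM in AsPC-1 and at 1056, 1057 and 1170 CPM in PANC-1. For each of the 3 loaded arms, every AsPC-1 control lay above every PANC-1 control. The share of all miRNAs with such separation was not counted, but 519 of 627 were called between the lines. The difference was 1.06 ± 0.10 LFC (SE) for miR-182-5p, 1.16 ± 0.11 for miR-183-5p and 1.34 ± 0.09 for miR-96-5p. Adjusted p-values were 1.02e-07, 1.4e-07 and 4.73e-09 (edgeR quasi-likelihood test, Benjamini-Hochberg over 627 miRNAs, n = 3 per line). The 95% intervals were 1.80 to 2.41-fold, 1.90 to 2.63-fold and 2.20 to 2.91-fold, so the 3 intervals overlapped.

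**Figure D1:**
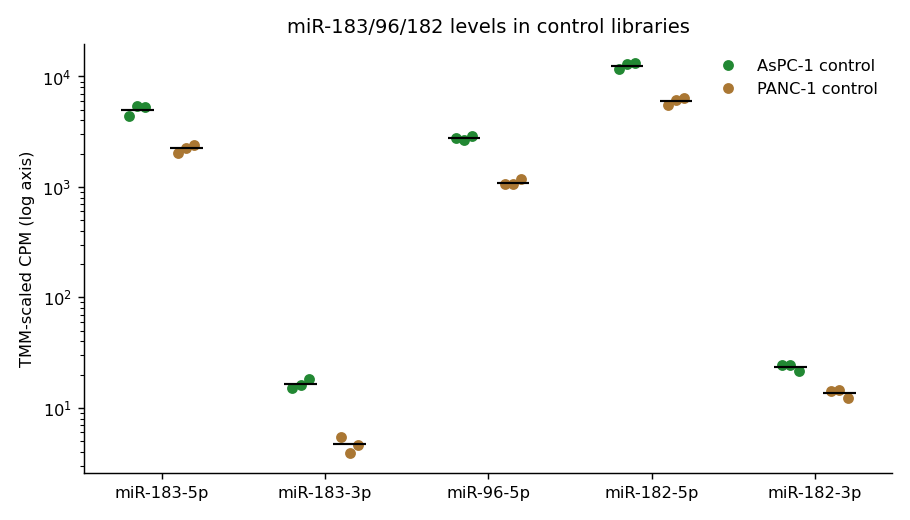
TMM-scaled CPM (log axis) of the 5 members in the 3 control libraries of each line, 1 point per library, with a line at the mean. The members are all higher in AsPC-1, from 4.67 against 16.5 CPM on average for miR-183-3p to 6021 against 12551 CPM for miR-182-5p.

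The 3p arms were scarce in both lines. MiR-183-3p was measured at 15.3, 16.1 and 18.2 CPM in AsPC-1 controls, from 90 to 117 reads, and at 5.50, 3.87 and 4.62 CPM in PANC-1 controls, from 19 to 27 reads. MiR-182-3p was measured at 24.6, 24.5 and 21.6 CPM in AsPC-1 and at 14.3, 14.4 and 12.4 CPM in PANC-1. Both were higher in AsPC-1 controls, by 1.83 ± 0.21 LFC for miR-183-3p (adjusted p = 1.41e-06, edgeR) and 0.78 ± 0.16 for miR-182-3p (adjusted p = 0.000469). The remaining arm, miR-96-3p, was listed with 38 to 46 reads in AsPC-1 controls and 6 to 14 in PANC-1 controls, a difference of 1.57 ± 0.29 LFC (adjusted p = 0.000145).

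Across all miRNAs tested between the lines, 519 of 627 were called at an adjusted p under 0.05, and 36% of those tested were higher in AsPC-1. A called difference was thus the rule for any miRNA, and the median absolute LFC of all 627 was 1.49, above the median of 1.16 over the members. The median LFC was -0.27 over all miRNAs. Scaling by total counts alone moved that median by a further -0.34 and the share of calls that were higher in AsPC-1 from 43.5% to 34.2%. The members kept their direction and their call under it, with LFCs of 0.72 for miR-182-5p, 0.82 for miR-183-5p, 1.00 for miR-96-5p, 1.49 for miR-183-3p and 0.44 for miR-182-3p. In the siMYEOV libraries the line difference was 1.23 for miR-182-5p and miR-183-5p and 1.04 for miR-96-5p, so that miR-96-5p had the largest difference of the loaded arms in controls and the smallest after knockdown. The lines also differed in medium, so cell line, culture and any difference in library preparation cannot be told apart here.

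As a share of all reads, the 5 members made up 1.72% to 1.99% of the AsPC-1 libraries and 0.975% to 1.09% of the PANC-1 libraries. Within the cluster the 3 loaded arms had the same order by reads in each of the 12 libraries. MiR-182-5p took 61.4% to 64.7% of the members' reads, miR-183-5p 23.1% to 25.8%, miR-96-5p 11.1% to 14.7% and both 3p arms together 0.169% to 0.256%. By read count, miR-182-5p ranked 18th to 22nd among the miRNAs of an AsPC-1 library and 26th to 28th among those of a PANC-1 library. MiR-183-5p ranked 40th to 44th and 51st to 62nd, and miR-96-5p 49th to 51st and 70th to 83rd. Ligation and amplification act unequally on different small RNAs, so a read share is not a share of molecules.

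The ratio of the loaded to the opposite arm was measured from few 3p reads. MiR-183-5p over miR-183-3p was 284 to 350 in the AsPC-1 libraries and 334 to 872 in those of PANC-1, where the 3p arm had 11 to 36 reads. MiR-182-5p over miR-182-3p was 475 to 607 in the AsPC-1 libraries and 337 to 520 in those of PANC-1. Between the lines these log2 ratios differed by -0.54 and 0.43 (exact permutation p = 0.03 and 0.01), and neither passed the adjustment over 15 ratio tests (adjusted p = 0.225 and 0.15). Without PANC-1 siMYEOV 2, which had 11 reads of miR-183-3p, the first difference was -0.32.

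MiR-1271-5p, which has the same seed as miR-96-5p, had the opposite pattern over the lines. It had 4 reads in each AsPC-1 control and 111, 166 and 110 reads in the PANC-1 controls, or 0.646 ± 0.030 against 26.2 ± 3.33 CPM (SD, n = 3), an LFC of -5.30 ± 0.27 (adjusted p = 1.07e-10, edgeR). Even in PANC-1, miR-96-5p had more reads with this seed than miR-1271-5p, with 1094 ± 65.1 CPM in the controls.

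The miR-200 family, which maintains the epithelial state, set a scale for the line difference. All 9 of its tested arms were called higher in AsPC-1, as were 36% of all miRNAs tested. MiR-200a-3p was measured at 18748 against 79.4 CPM (LFC 7.88) and miR-200c-3p at 10677 against 16.3 CPM (LFC 9.35). MiR-200c-5p was not listed in any PANC-1 control and was counted as 0. MiR-141-3p, miR-141-5p and miR-200b-5p averaged 0.344, 0.136 and 0.964 CPM in PANC-1 controls. These 4 arms passed the filter only through AsPC-1, so their direction was fixed once they were tested. Among the members the highest LFC was 1.83, for miR-183-3p. Of 11 miRNAs encoded elsewhere on the middle of chromosome 7q, 7 were tested between the lines. Higher in AsPC-1 were 4 of them, miR-29a-3p (LFC 1.56), miR-335-3p (1.30), miR-29b-3p (0.69) and miR-335-5p (0.63). MiR-129-5p was lower (-6.24), with 0.368 CPM in AsPC-1 controls, less than a count of 3, and 30.1 CPM in PANC-1 controls. It passed the filter only through PANC-1. MiR-29b-3p and miR-129-5p each have a further locus on another chromosome.

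After MYEOV knockdown, none of the 5 members was called in AsPC-1. The LFCs of siMYEOV over control were small and of mixed sign, from -0.13 for miR-96-5p to 0.17 for miR-182-5p. Values in this comparison are CPM scaled within the 6 AsPC-1 libraries. MiR-182-5p was measured at 10180, 11400 and 11800 CPM in controls 1 to 3 and at 13130, 11830 and 12680 CPM in siMYEOV 1 to 3. MiR-96-5p was measured at 2407, 2353 and 2597 CPM in controls and at 2263, 2223 and 2225 CPM in siMYEOV libraries. MiR-182-5p was thus above every control in each siMYEOV library, although siMYEOV 2 exceeded control 3 by little, and miR-96-5p was below every control. With the scaling over all 12 libraries the groups of miR-182-5p overlapped, with 13910 CPM in control 3 and 13410 CPM in siMYEOV 1. MiR-183-5p, encoded nearest to miR-96, was measured at 3784, 4787 and 4741 CPM in controls and at 4880, 4465 and 4839 CPM in siMYEOV libraries, and its groups overlapped.

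The changes in AsPC-1 were 0.17 ± 0.08 LFC for miR-182-5p (95% interval 0.999 to 1.27-fold, adjusted p = 0.204), -0.13 ± 0.08 for miR-96-5p (0.816 to 1.02-fold, adjusted p = 0.295) and 0.09 ± 0.09 for miR-183-5p (0.928 to 1.22-fold, adjusted p = 0.572) by edgeR. Without control 1, the library that stood apart, the change of miR-183-5p was -0.0038 and that of miR-182-5p 0.12. MiR-183-3p ranged from 13.2 to 16.4 CPM and miR-182-3p from 19.4 to 24.8 CPM over the 6 libraries, and the groups overlapped for both. Of the 498 miRNAs tested, 11.4% were called and 30.5% had groups that did not overlap, against 0 of 5 and 2 of 5 members. No member had an unadjusted p under 0.05 by edgeR, against 123 of 498 miRNAs, and DESeq2's Wald test called no member either. The median LFC was 0.09 over the members and -0.0047 over all miRNAs.

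**Figure D2:**
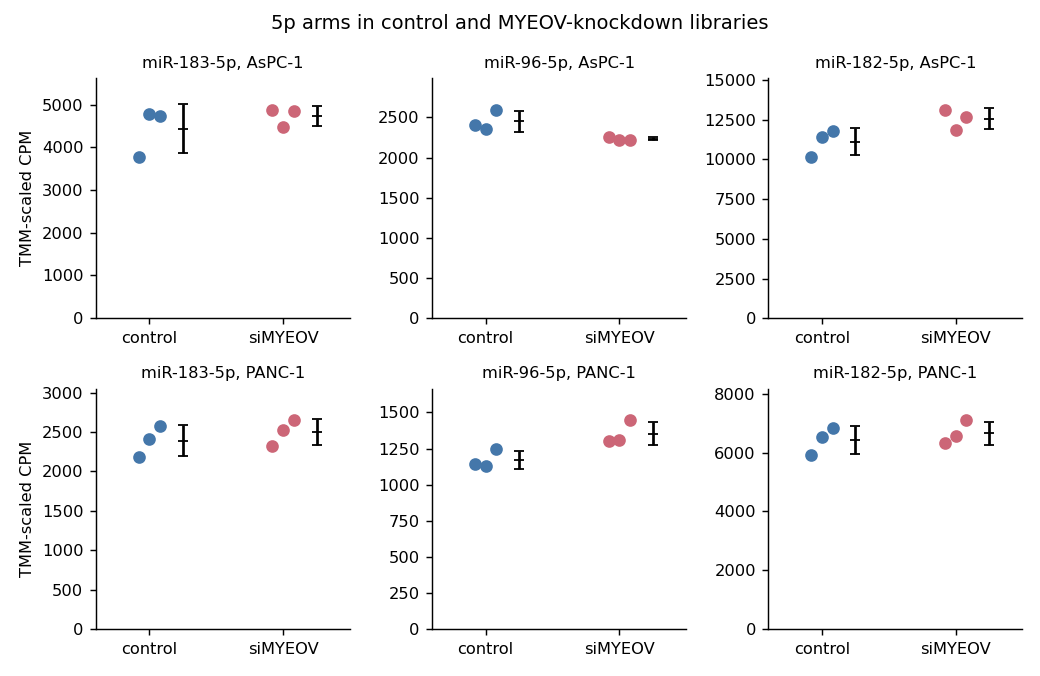
TMM-scaled CPM of the 3 loaded 5p arms in the control and siMYEOV libraries of each line, 1 point per library, with the mean ± SD beside the points and each axis starting at 0. Each line is scaled within its own libraries, so levels are not on one scale across the lines. Differences between control and siMYEOV are small beside the levels. With this scaling miR-96-5p is below the controls in AsPC-1 and above them in PANC-1. Its groups overlap in AsPC-1 with all 12 libraries scaled together, and in PANC-1 with total counts.

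In PANC-1, again none of the 5 members was called. All 5 LFCs were above 0, from 0.05 for miR-182-5p to 0.31 for miR-182-3p. The median LFC was 0.208 over the members and 0.0283 over all miRNAs, and the share of all miRNAs above 0 was not counted. MiR-96-5p was measured at 1140, 1127 and 1245 CPM in controls 1 to 3 and at 1300, 1311 and 1445 CPM in siMYEOV 1 to 3. MiR-182-5p was measured at 5919, 6538 and 6859 CPM in controls and at 6321, 6568 and 7101 CPM in siMYEOV libraries. MiR-183-5p was measured at 2185, 2417 and 2571 CPM in controls and at 2323, 2522 and 2648 CPM in siMYEOV libraries. Every siMYEOV library was above every control for miR-96-5p, whereas the groups overlapped for miR-182-5p and miR-183-5p.

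The changes in PANC-1 were 0.21 ± 0.08 LFC for miR-96-5p (95% interval 1.03 to 1.30-fold, adjusted p = 0.0726), 0.05 ± 0.09 for miR-182-5p (0.917 to 1.17-fold, adjusted p = 0.727) and 0.06 ± 0.09 for miR-183-5p (0.926 to 1.18-fold, adjusted p = 0.633) by edgeR. MiR-182-3p was measured at 15.4, 15.4 and 13.2 CPM in controls and at 18.7, 17.1 and 19.0 CPM in siMYEOV libraries, without overlap (0.31 ± 0.17, adjusted p = 0.192). MiR-183-3p, with 11 to 36 reads, ranged from 2.89 to 7.93 CPM and overlapped. Of the 551 miRNAs tested in PANC-1, 22% were called and 36.7% had groups that did not overlap, against 0 of 5 and 2 of 5 members. MiR-96-5p was the 1 member with an unadjusted p under 0.05, as had 197 of the 551 miRNAs, and DESeq2's Wald test called no member.

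The directions of miR-182-5p and miR-183-5p in PANC-1 depended on the scaling between libraries. With total counts alone the median LFC of all miRNAs moved by -0.15, and 18.2% of the calls were higher after knockdown in place of 57.9%. MiR-182-5p and miR-183-5p then had LFCs of -0.093 and -0.079, and miR-96-5p 0.065. The groups of miR-96-5p then overlapped, with 1255 CPM in siMYEOV 2 and 1265 CPM in control 3, and so did those of miR-182-3p, with 16.4 CPM in siMYEOV 2 and 16.7 CPM in control 1.

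**Figure D3:**
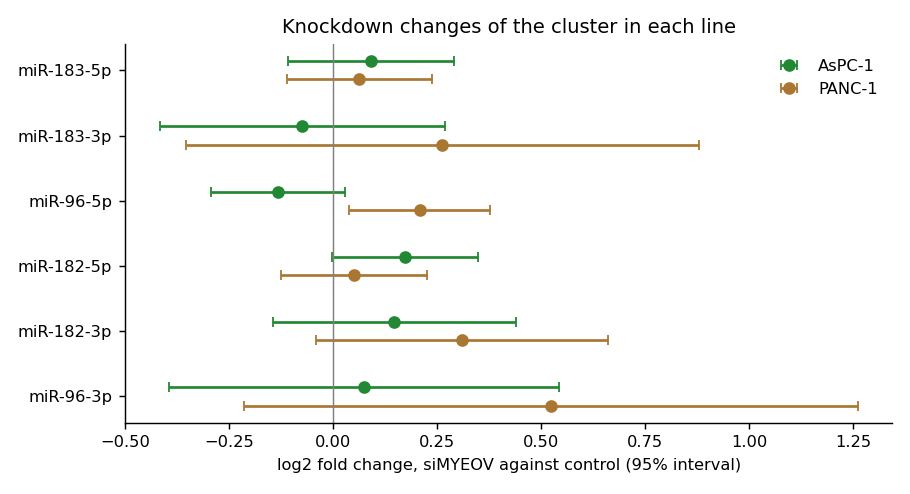
LFC of siMYEOV over control with its 95% interval (edgeR quasi-likelihood fit within each line, n = 3 per group) for the 5 members and miR-96-3p in AsPC-1 and PANC-1. The intervals of all members include 0 in AsPC-1, and in PANC-1 that of miR-96-5p runs from 0.04 to 0.38.

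Whether a knockdown change differed by line was tested as an interaction term in a fit of all 12 libraries, in which 2 of 650 miRNAs (0.308%) were called and none of the 5 members. The change of miR-96-5p in AsPC-1 minus that in PANC-1 was -0.44 ± 0.13 LFC (95% interval -0.71 to -0.17, adjusted p = 0.104, edgeR), and the median over all 650 miRNAs was -0.12. MiR-96-5p was the only member with an unadjusted p under 0.05, as had 74 of the 650 miRNAs. Its difference was -0.27 with DESeq2's size factors and -0.21 with total counts, so the scaling between the lines changed its size. The call depended on single libraries, as miR-96-5p passed without AsPC-1 control 1 (-0.44, adjusted p = 0.0248), the library that stood apart, or without AsPC-1 control 2 (-0.52, adjusted p = 0.0336). In those fits the calls over all miRNAs also rose, from 2 to 25 of 665 (3.76%) and 20 of 667. For miR-182-5p and miR-183-5p the differences were 0.03 and -0.07 (adjusted p = 1.00 and 0.927). With the scaling within each line, 4 of the 414 miRNAs tested in both lines (0.966%) had groups that did not overlap in either line and moved in opposite directions. They were miR-1303, miR-23b-5p, miR-454-3p and miR-96-5p. With the scaling over all 12 libraries the AsPC-1 groups of miR-96-5p overlapped, with 2638 CPM in siMYEOV 2 and 2630 CPM in control 2.

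Whether the members moved together was examined with ratios of 2 members' reads in the same library, which do not depend on the scaling between libraries. MiR-182-5p over miR-183-5p varied little, at 2.38 to 2.69 in AsPC-1 controls, 2.62 to 2.69 in AsPC-1 siMYEOV libraries, 2.67 to 2.71 in PANC-1 controls and 2.60 to 2.72 in PANC-1 siMYEOV libraries. Its log2 change after knockdown was 0.076 in AsPC-1 cells and -0.014 in PANC-1 cells (exact permutation p = 0.4 and 0.7, adjusted p = 0.6 and 0.875). These members, from opposite ends of the cluster, were thus measured at a like ratio in both lines and both groups.

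MiR-182-5p over miR-96-5p was 4.23, 4.84 and 4.54 in AsPC-1 controls 1 to 3 and 5.80, 5.32 and 5.70 in AsPC-1 siMYEOV 1 to 3. In PANC-1 it was 5.19, 5.80 and 5.51 in controls and 4.86, 5.01 and 4.91 in siMYEOV libraries. In AsPC-1 each siMYEOV library was above each control, and in PANC-1 each was below. The log2 change was 0.31 (1.24-fold) for AsPC-1 and -0.16 (0.897-fold) for PANC-1, each with the smallest p that 3 against 3 libraries allow (exact permutation p = 0.1, adjusted p = 0.3). The difference between these changes was 0.46, or 1.38-fold (exact permutation p = 0.005, the smallest the 400 arrangements can give, adjusted p = 0.025 over 5 ratios). This test was added after the values had been seen and was adjusted apart from the 15 other ratio tests. The groups of each line were already known to separate, in opposite directions. Its p therefore had to be the smallest possible, and it adds no support to that separation. Its adjusted p was 0.05 when any 1 of the PANC-1 siMYEOV libraries was left out, while the difference stayed between 0.41 and 0.51.

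MiR-96-5p over miR-183-5p was 0.636, 0.491 and 0.548 in AsPC-1 controls and 0.464, 0.498 and 0.460 in AsPC-1 siMYEOV libraries. In PANC-1 it was 0.522, 0.467 and 0.484 in controls and 0.559, 0.520 and 0.546 in siMYEOV libraries. The groups overlapped in both lines, by 1 control in each. The log2 changes were -0.23 and 0.14 (exact permutation p = 0.2 for both, adjusted p = 0.333; the AsPC-1 change was -0.13 without control 1), and their difference was -0.37 (exact permutation p = 0.02, adjusted p = 0.05, which does not pass). The same difference was 0.090 for miR-182-5p over miR-183-5p (exact permutation p = 0.185, adjusted p = 0.231). The ratios of loaded to opposite arm changed by 0.16 and 0.027 in AsPC-1 and by -0.062 and -0.27 in PANC-1 for miR-183 and miR-182, with adjusted exact permutation p-values from 0.3 to 0.95.

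**Figure D4:**
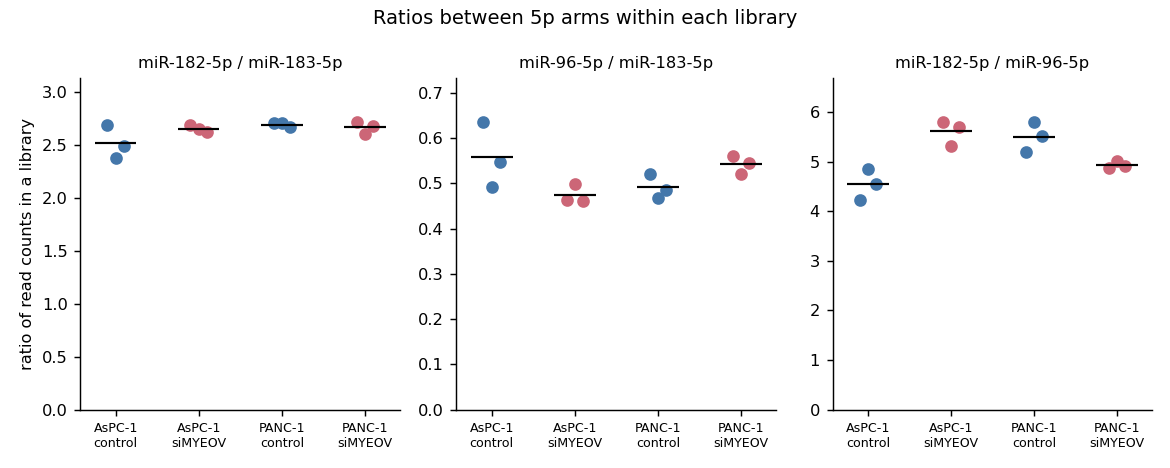
Ratios of the read counts of 2 members within each library, 1 point per library, by line and group, with a line at the mean and each axis starting at 0. MiR-182-5p over miR-183-5p stays between 2.38 and 2.72, whereas miR-182-5p over miR-96-5p is higher in AsPC-1 siMYEOV than in control libraries and lower in PANC-1 siMYEOV than in control libraries.

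Summed over the 5 members, the cluster was measured at 18050 ± 1453 CPM in AsPC-1 controls and 19550 ± 903 CPM in siMYEOV libraries (SD, n = 3), a difference of 8.30% (exact permutation p = 0.3). In PANC-1 the sums were 10020 ± 718 and 10540 ± 634 CPM, a difference of 5.17% (exact permutation p = 0.5). With total-count CPM the PANC-1 difference had the opposite sign, at -499 CPM (exact permutation p = 0.2). Leaving out 1 library at a time, the difference of the sums ran from 677 CPM (without control 1) to 2058 CPM in AsPC-1 and from 140.1 CPM (without control 1) to 854 CPM in PANC-1.

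Over the 12 libraries, log2 CPM of miR-183-5p and miR-182-5p had a Pearson r of 0.997, and that of miR-96-5p an r of 0.979 with miR-183-5p and 0.978 with miR-182-5p. These values mostly hold the line difference. After each line's mean was subtracted, r was 0.838 for miR-183-5p with miR-182-5p, 0.357 for miR-183-5p with miR-96-5p and 0.257 for miR-96-5p with miR-182-5p. The pairs with a 3p arm had r from -0.094 to 0.370. The libraries share their scaling within a fit, and these correlations are descriptions over 12 libraries of 4 groups.

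Of 645 other miRNAs, those most like the mean log2 CPM of the 3 loaded arms were miR-30d-5p (Pearson r = 0.998), miR-361-3p, let-7d-3p, miR-582-3p and miR-192-5p (0.994) over the 12 libraries. With the line means removed they were miR-3909 (r = 0.922), let-7e-5p, miR-30d-5p, miR-148a-5p and miR-548o-3p (0.884). MiR-30d-5p was in both lists. MiR-96-3p ranked 157th as measured and 462nd with the line means removed.

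The lists named above are read against 35 of 498 miRNAs that rose and 22 that fell in AsPC-1, and 70 of 551 that rose and 51 that fell in PANC-1. In AsPC-1, 3 of 9 arms of the miR-200 family rose and no other arm was called. They were miR-141-5p (LFC 0.69, adjusted p = 0.00327), miR-200b-5p (0.52, adjusted p = 0.000897) and miR-200a-5p (0.47, adjusted p = 0.0138) by edgeR. These 5p arms were the scarcer arms, with 58.9, 178 and 1097 CPM in AsPC-1 controls against 268, 17371 and 16593 CPM for their 3p arms. In PANC-1, 5 arms of the family were tested, miR-200a-5p rose (0.87, adjusted p = 0.00363) and miR-429 fell (-0.43, adjusted p = 0.0403). Of the other miRNAs on 7q, miR-335-5p fell in both lines, by 0.41 in AsPC-1 (adjusted p = 0.048, 1 of 6 tested) and by 0.39 in PANC-1 (adjusted p = 0.0279), and miR-129-5p rose in PANC-1 (0.45, adjusted p = 0.0157), 7 being tested there. Of the marker lists, no miRNA was called in AsPC-1, and in PANC-1 miR-1-3p (0.36), miR-126-3p (0.24) and miR-429 were called.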

How the data were processed

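Small RNA of 12 libraries was sequenced in single 50-nt reads. Per the methods of the study and the file contents, the authors trimmed adapters, mapped reads to hg19 with Bowtie (version not given in the sources used here), retained perfect matches as long as a miRNA and deposited raw counts per mature miRNA. A count covers the most abundant sequence near the annotated 5′ end and sequences sharing that end, which leaves out isoforms that begin elsewhere. The annotation release is not given in the sources used here. A miRNA not listed in a library was counted as 0.

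Groups came from the sample titles. MiRNAs were kept with edgeR's filterByExpr (minimum count 10) and tested with TMM factors and the two-sided quasi-likelihood test (edgeR 4.0.16, R 4.3.3), per line without a replicate block, over the 6 controls, and with a line-by-treatment interaction over 12 libraries. P-values were adjusted by Benjamini-Hochberg, with a threshold of 0.05. Log2 CPM for correlations used a prior count of 2. Ratios used counts plus 0.5 and two-sided exact permutation tests, 15 adjusted together and 5 later tests of the difference between lines adjusted apart. Line labels were permuted within treatment for the line comparison (400 arrangements, smallest p 0.005). Depth was 3805084 to 7311783 counts, and floors reflect counting error alone. Fits and permutation tests were tested on simulated data. Alternatives were DESeq2 1.42.0 (size factors, Wald test), total counts, TMM without the 10 most abundant miRNAs, other filters, all 12 libraries together, a replicate block, left-out libraries and other pseudocounts.

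Named miRNAs were the members, miR-96-3p, miR-1271-5p, called miRNAs of the miR-200 and 7q lists, and the 5 most alike. MiR-1303, miR-23b-5p, miR-454-3p and called markers were named after their values were seen. Members and lists were chosen with earlier results of these data known. Mature sequences of all 5 members and the hairpins of miR-96 and miR-182 were matched in RefSeq, and positions came from GENCODE on GRCh37.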

Additional observations from a re-analysis of the deposited data

Results flagged for a closer look

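The knockdown change of miR-96-5p in AsPC-1 minus that in PANC-1 was -0.44 LFC. It was singled out because every AsPC-1 siMYEOV library lay below and every PANC-1 siMYEOV library above the controls of its line when scaled within the line. With all 12 libraries scaled together the groups overlapped in AsPC-1, and with total counts they overlapped in PANC-1. The test of the difference itself did not pass the threshold (adjusted p = 0.104, edgeR quasi-likelihood interaction), and its size moved with the scaling between libraries. It passed without AsPC-1 control 1 (adjusted p = 0.0248) or control 2 (adjusted p = 0.0336), fits in which 25 of 665 (3.76%) and 20 of 667 miRNAs were called.

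The log2 ratio of miR-182-5p over miR-96-5p changed by 0.46 more in AsPC-1 than in PANC-1. It was singled out because the test of that difference passed (exact permutation p = 0.005, adjusted p = 0.025 over 5 ratios). Without any 1 of the PANC-1 siMYEOV libraries the adjusted p was 0.05, which does not pass. It shares the reads of miR-96-5p with the result above and is not independent of it. The test was added after the values had been seen, when the groups of each line were known to separate in opposite directions. Its p therefore had to be the smallest possible, and it was adjusted apart from the 15 other ratio tests.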

How the results depend on the processing

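The 5 members kept their direction and call between the lines under each alternative, and none was called after knockdown in AsPC-1 under any. Called miRNAs changed from 57 to 29 (5.82% of those tested) in AsPC-1 with a replicate block, from 121 to 67 (10.3%) in PANC-1 with all 12 libraries in one fit, and from 519 to 302 between the lines with at least 10 counts in every library, where 388 were tested (77.8% called). In AsPC-1 the share of calls that were higher was 61.4%, but 35.7% with all 12 libraries in one fit, which moved the median LFC by -0.10, and 79.3% with the block. The replicate block called 1 member in PANC-1, miR-96-5p (LFC 0.21, adjusted p = 0.0184, edgeR), where 153 of 551 miRNAs (27.8%) were called. The numbers were not taken to pair libraries: deviations of same-numbered libraries correlated at -0.155, -0.121 and 0.128 in AsPC-1 and 0.0509, 0.029 and 0.139 in PANC-1, and 2 and 4 of 6 libraries correlated best with their own number.

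The sign turned for miR-183-5p (-0.0050) and miR-96-3p (-0.025) in AsPC-1 with all 12 libraries in one fit. With total counts it turned in PANC-1 for miR-183-5p (-0.079), miR-182-5p (-0.093) and the summed CPM (-499). The difference between lines for miR-183-5p turned to 0.094 with DESeq2 size factors, 0.16 with total counts and 0.065 with at least 10 counts in every library, settings that moved the median of all miRNAs by 0.16, 0.23 and 0.14.

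Leaving out 1 library gave calls for 4.62% to 20.2% of the miRNAs tested in AsPC-1 (102 without control 1, 24 without siMYEOV 1, 31 without siMYEOV 3), 9.62% to 22.5% in PANC-1 (55 without siMYEOV 3, 68 without siMYEOV 2) and 0.15% to 3.76% in the interaction (25 without AsPC-1 control 1, 20 without control 2, 13 without PANC-1 control 3, 5 without PANC-1 control 1, 1 without AsPC-1 siMYEOV 1), with 0 to 1 members called. That member was miR-96-5p, without AsPC-1 control 1 (-0.44, adjusted p = 0.0248) or control 2 (-0.52, adjusted p = 0.0336). Knockdown LFCs that changed sign ran from -0.0038 to 0.15 for miR-183-5p and -0.13 to 0.021 for miR-183-3p in AsPC-1, and from -0.012 to 0.11 for miR-183-5p, -0.022 to 0.083 for miR-182-5p and -0.036 to 0.57 for miR-183-3p in PANC-1. Differences between lines ran from -0.028 to 0.10 for miR-182-5p and -0.17 to 0.0023 for miR-183-5p.

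Log2 ratios that changed sign ran from -0.055 to 0.12 (miR-182-5p over miR-182-3p, AsPC-1), -0.50 to 0.17 (miR-183-5p over miR-183-3p, PANC-1), -0.028 to 0.0037 (miR-182-5p over miR-183-5p, PANC-1) and -0.056 to 0.037 (miR-96-5p over miR-183-5p, between lines). The difference of changes between lines ran from -0.0018 to 0.67 (miR-183-5p over miR-183-3p), -0.46 to -0.28 (miR-96-5p over miR-183-5p, adjusted p 0.025 to 0.113, permutation test) and 0.41 to 0.51 (miR-182-5p over miR-96-5p, adjusted p 0.025 to 0.05, not passing without any 1 of the PANC-1 siMYEOV libraries). The cause of these changes was not tested. In PANC-1 the 3p arms had 11 to 86 reads per library, which limits their ratios.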
